A study of Mus musculus with 6 samples.

Results

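The nuclear-encoded oxidative phosphorylation (OXPHOS) genes were taken as the genes whose symbol names a subunit family of respiratory complexes I to V: Nduf genes of the a, b, c, s and v series with Ndufab1, Sdha to Sdhd, the Uqcr genes with Cyc1, Cox4 to Cox8, and the Atp5 genes. The rule used symbols and no measured value, and it found 86 members among the 16081 genes listed. Complex I had 41 members, complex II 4, complex III 9, complex IV 15 and complex V 17. The members were described in Lewis cells, a mouse lung carcinoma line, cultured in serum-containing DMEM and treated for 24 hours with DMSO, the solvent control (3 samples), or with SD70, an inhibitor of the histone demethylase KDM4C (3 samples). The dose of SD70 used for these samples was not given in the sources used here, and the 6 samples came from 1 cell line with no genetic change named in the labels.

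RNA had been purified on oligo(dT) beads, and each gene of each sample had been deposited with its expected read count and with FPKM, a level scaled to transcript length and library size. Count totals ranged from 15276744 to 17060424 per sample. The members took 0.823%, 0.883% and 0.896% of all DMSO counts and 0.789%, 0.85% and 0.788% of all SD70 counts, so the groups overlapped. Between samples of the same number, the SD70 share was the lower each time. The source label calls the cells lung adenocarcinoma, but of 5 lung epithelial markers Nkx2-1, Scgb1a1 and Sftpb were not listed, and the other 2 summed to between 3 and 11 counts per sample. The summed counts of 5 epithelial markers ran from 4019 to 4228 with DMSO and from 2414 to 2916 with SD70, nearly all from the keratins Krt8 (log2 fold change -0.552) and Krt18 (-1.225), while Epcam, Cdh1 and Krt19 had at most 1 count per sample. The sums of 6 listed leukocyte markers ran from 269 to 283 and from 188 to 217, but the 3 that were tested ran from -0.794 (Cd79a, not called) over -0.481 (Cd68, lower) to 0.794 (Lyz2, not called), and Ptprc had at most 2 counts. Those of 4 fibroblast markers ran from 1591 to 1646 and from 2314 to 2484, with Pdgfrb higher (1.539), Dcn lower (-0.187) and Col1a1 and Thy1 at 6 counts or fewer. In bulk RNA, a smaller share of cells of a type and less RNA per cell cannot be told apart, and the part of these markers in the results was not tested.

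The respiratory chain passes electrons from NADH (complex I) and succinate (complex II) through coenzyme Q to complex III, through cytochrome c to complex IV, and so to oxygen. Complexes I, III and IV pump protons, and complex V, the ATP synthase, uses the proton gradient to make ATP. Subunits come from both the nuclear and the mitochondrial genome, and besides a catalytic core complexes I, III, IV and V hold small accessory subunits that help to build or hold them, while complex II consists of a catalytic pair and its membrane anchors. None of the 13 subunit genes of the mitochondrial genome was in the list (0 of 13), so the transcripts described here are those of the nuclear genome alone.

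Most members were expressed at similar levels in both groups. The filter on low counts kept 82 members. Ndufa11b, Ndufa4l2, Ndufb4b and Cox4i2 had at most 5 counts in any sample and were left out of the tests. With edgeR's quasi-likelihood test and an adjusted p under 0.01, 4 members were higher with SD70, 19 were lower and 59 were not called. Among all 11552 genes tested, 25.8% were called higher and 24.2% lower. The members' shares were 4.88% higher and 23.2% lower, so the share called lower was close to the background and the share called higher was below it. The study's text gives p under 0.01 and a change of 1 on the log2 scale as its thresholds, without saying whether p was adjusted. With the adjusted p, 0 of 82 members passed by edgeR, DESeq2 and limma alike. Of all 11552 genes, 681 passed by edgeR (5.9%) and 606 by DESeq2. By limma, 283 passed on log2(FPKM + 1) and 565 on log2(FPKM + 0.1). In the edgeR fit the members ran from -0.88 to 0.843, so with the unadjusted p none would pass either. At the same adjusted p, DESeq2 called 3 higher and 16 lower, against 23.1% and 21.3% of all genes. In 6 members all SD70 samples lay above all DMSO samples, against 32.8% of all genes, and in 21 all SD70 samples lay below, against 31.6%. The log2 fold change was below 0 in 57 members and above 0 in 25. Its median over the members was -0.073, beside -0.004 over all genes tested, and the 3 SD70 samples were not alike. Relative to the DMSO mean, the median member stood at -0.085, 0.002 and -0.166 on the log2 scale in SD70 samples 1, 2 and 3, and at -0.091, 0.029 and 0.044 in DMSO samples 1, 2 and 3. The count of lower members fell to 10 without SD70 replicate 1 and to 11 without SD70 replicate 3, and the count of higher members to 2 without DMSO replicate 1. Among all genes, 21.5% and 21.6% were lower without these SD70 replicates, and 23% were higher without that DMSO replicate. Of the 23 calls, 10 (2 higher and 8 lower) were kept in each of 15 alternative analyses.

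**Figure D1:**
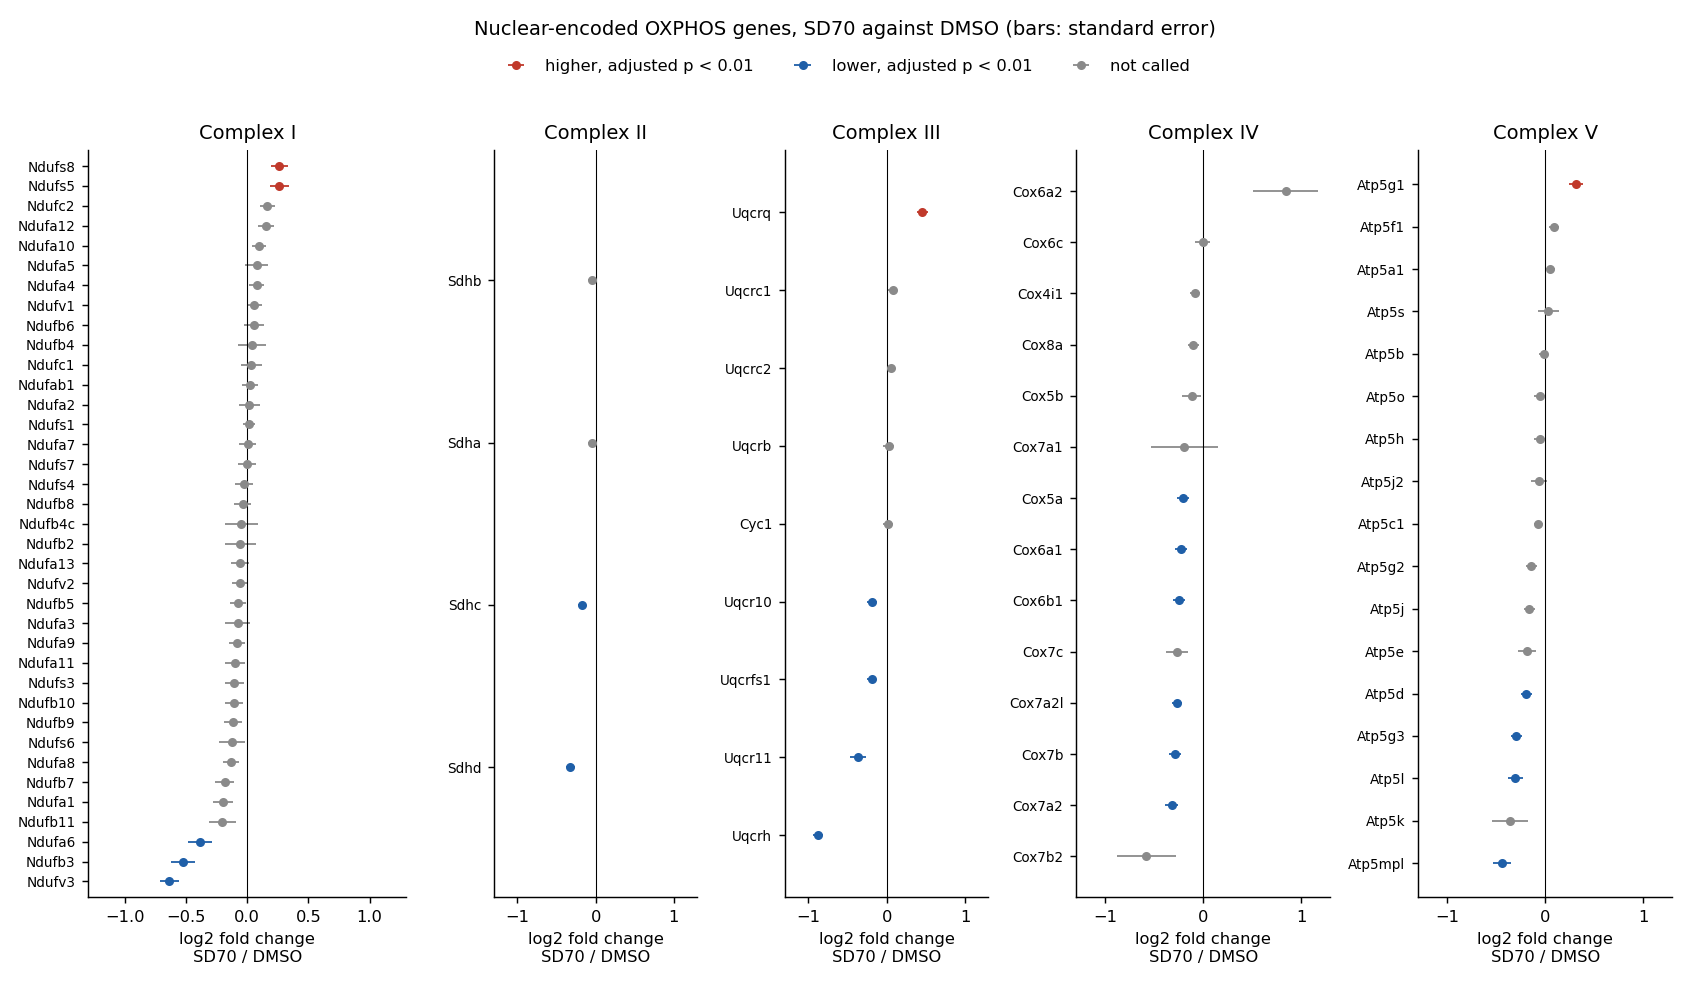
Log2 fold change of SD70 against DMSO (x axis) for 81 of the 82 tested members (y axis), by complex. Points are edgeR estimates from 3 samples per group, bars are standard errors, and color marks an adjusted p under 0.01. Most points lie near 0, Uqcrh at -0.88 is the lowest, and the 4 higher members are Uqcrq, Atp5g1, Ndufs8 and Ndufs5.

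The sequences just before the start sites of the members with the largest called falls, Uqcrh and Ndufv3, and of the higher complex I members, Ndufs8 and Ndufs5, are shown to let them be compared. Each is the 100 bases upstream of the start site in RefSeq on GRCm38.p6, read 5′ to 3′ on the strand of the gene, with matches to the motifs described further on in capitals. The stretches are chr4:116075071-116075170 (minus strand) for Uqcrh, chr17:31520015-31520114 (plus) for Ndufv3, chr19:3912775-3912874 (minus) for Ndufs8 and chr4:123718187-123718286 (minus) for Ndufs5.
Uqcrh: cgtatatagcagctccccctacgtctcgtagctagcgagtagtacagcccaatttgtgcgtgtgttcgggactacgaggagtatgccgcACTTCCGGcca
Ndufv3: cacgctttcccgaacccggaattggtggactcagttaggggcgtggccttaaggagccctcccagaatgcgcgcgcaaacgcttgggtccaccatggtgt
Ndufs8: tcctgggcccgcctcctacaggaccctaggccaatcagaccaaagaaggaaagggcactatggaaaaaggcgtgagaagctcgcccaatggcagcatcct
Ndufs5: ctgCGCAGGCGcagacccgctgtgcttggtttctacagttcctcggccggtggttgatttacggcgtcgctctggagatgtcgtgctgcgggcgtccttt
Their GC content was 56%, 61%, 57% and 62% in that order, and they held 9, 8, 3 and 11 CpG dinucleotides. The capitals mark a GABP motif in Uqcrh and an NRF1 motif in Ndufs5. The other members of this set, Ndufv3 and Ndufs8, held no match in these 100 bases. The largest called rises of the family, those of Uqcrq (0.456) and Atp5g1 (0.314), are not shown. Uqcrq had no start-site window in the RefSeq set used, and the window of Atp5g1 held no match.

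Complex I takes electrons from NADH through a core of flavin and iron-sulfur subunits. Of its 38 tested members, 2 were higher, 3 were lower and 33 were not called. These shares, 5.26% and 7.89%, were both below the 25.8% and 24.2% of all genes. The 7 core subunits had a median log2 fold change of -0.004, with 1 higher and 0 lower, a count that was also 0 at an unadjusted p under 0.05 and by DESeq2 and limma. Ndufs1, the largest iron-sulfur subunit, had 3126, 3196 and 3031 normalized counts (counts scaled to a common library size) in DMSO samples 1 to 3 and 3157, 3084 and 3214 in SD70 samples 1 to 3. The groups overlapped, and the log2 fold change was 0.015 with a 95% interval from -0.08 to 0.12. Other core subunits were also close to 0: Ndufs7 changed by -0.004 (interval -0.16 to 0.15) and Ndufv1, which binds NADH, by 0.059 (-0.06 to 0.18).

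Ndufs8, a core subunit that carries iron-sulfur clusters, was the core member that rose. It had 456, 527 and 514 normalized counts with DMSO and 591, 595 and 612 with SD70, without overlap, a log2 fold change of 0.263 ± 0.0714 (SE, adjusted p = 0.00193 by edgeR). Without DMSO replicate 1, the lowest sample, it was 0.201 and the call was lost (edgeR, adjusted p = 0.0238). The accessory subunit Ndufs5, named after its values were seen, rose by a similar amount, with 494, 571 and 650 against 695, 686 and 675 normalized counts and a log2 fold change of 0.262 (adjusted p = 0.00367 by edgeR). That call was lost without any one of DMSO replicates 1 and 2 and SD70 replicates 1 and 2 (edgeR, adjusted p = 0.0586, 0.0159, 0.0193 and 0.0142), by DESeq2 (0.0103) and with upper-quartile scaling (0.0164).

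Of the 31 accessory members of complex I that were tested, 1 was higher and 3 were lower, with a median of -0.057. These shares, 3.23% and 9.68%, were below the 25.8% and 24.2% of all genes. Ndufv3, a small subunit of the NADH-binding arm (NCBI Gene 78330, chr17:31520115-31531326), fell most. It had 1101, 1148 and 1177 normalized counts with DMSO and 658, 859 and 685 with SD70. All 3 SD70 samples lay below the lowest DMSO sample, with SD70 sample 2 the nearest, and the difference was -0.636 ± 0.0757 on the log2 scale (SE, adjusted p = 1.39e-07 by edgeR). The call held in the 6 fits that each omitted a sample. Ndufb3, an accessory subunit of the membrane arm, had 680, 748 and 826 against 516, 609 and 438 normalized counts, which did not overlap. It fell by 0.525 on the log2 scale (adjusted p = 0.000383 by edgeR), and without SD70 replicate 1 the call was lost (-0.514, adjusted p = 0.0182). Ndufa6 had 285, 344 and 357 against 268, 271 and 215 normalized counts, a difference of -0.383 (adjusted p = 0.00115 by edgeR). Its highest SD70 sample was just under the lowest DMSO sample, and without SD70 replicate 3 the adjusted p was 0.0139. With the length offset described further on, Ndufa6 was at -0.253 (edgeR, adjusted p = 0.0123). Ndufa4, which carries a complex I name but is known as a subunit of complex IV, had 1024, 1179 and 1110 against 1214, 1206 and 1070 normalized counts, and the groups overlapped (0.076, interval -0.05 to 0.20).

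Complex II, succinate dehydrogenase, links the tricarboxylic acid cycle to the chain and is wholly nuclear-encoded. Its catalytic pair was not called and its membrane anchors were lower, 50% of 4 genes against 24.2% of all genes. Sdha, the flavoprotein, changed by -0.051 (interval -0.16 to 0.05) and Sdhb, the iron-sulfur protein, by -0.04 (-0.15 to 0.07). Sdhd, an anchor, had 1054, 1138 and 1126 normalized counts with DMSO and 886, 926 and 842 with SD70. The groups were apart, and the difference was -0.322 ± 0.0598 on the log2 scale (SE, adjusted p = 2.05e-05 by edgeR). The other anchor, Sdhc, had 1659, 1659 and 1647 against 1389, 1560 and 1450, a smaller difference of -0.174 (adjusted p = 0.00691 by edgeR). This call was lost without any one sample other than SD70 replicate 2, with adjusted p from 0.0145 to 0.0433 by edgeR, and it was missed by DESeq2 (adjusted p = 0.0101).

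Complex III moves electrons from coenzyme Q to cytochrome c. Its 9 members had a median log2 fold change of 0.014, yet they held both the largest called fall and the largest called rise of the whole family, with 1 member higher, 4 lower and 4 not called. The 44.4% lower was above the 24.2% of all genes and the 11.1% higher below the 25.8%, over 9 genes and with no test of the difference. Uqcrh, the hinge protein that sits beside cytochrome c1 (NCBI Gene 66576, chr4:116066965-116075070), had 1354, 1514 and 1359 normalized counts with DMSO and 740, 844 and 710 with SD70. Each SD70 sample was far below each DMSO sample. The mean with SD70 was 0.543 of that with DMSO, or -0.88 ± 0.0648 on the log2 scale (SE, adjusted p = 1.2e-13 by edgeR), and the fits that each omitted a sample gave values from -0.96 to -0.84. Its FPKM level fell from 228 ± 17.7 to 124 ± 8.97 (SD, n = 3). A RefSeq pseudogene overlaps the span of Uqcrh by 1721 bases and was not listed.

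Uqcrq, a small subunit known to bind coenzyme Q (NCBI Gene 22272, chr11:53427922-53430831), went the other way. It had 908, 961 and 1011 normalized counts with DMSO and 1174, 1473 and 1305 with SD70, with no overlap. The difference was 0.456 ± 0.0678 on the log2 scale (SE, adjusted p = 1.34e-06 by edgeR), and from 0.37 to 0.54 in the fits that each omitted a sample. Within a sample, the ratio of Uqcrq to Uqcrh counts was 0.671, 0.635 and 0.744 with DMSO and 1.59, 1.74 and 1.84 with SD70. These genes were paired after their values were seen, and the ratio is of counts, not corrected for length, so it describes the change between groups rather than their relative abundance.

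The remaining members of complex III moved little or down. Cyc1, cytochrome c1, a catalytic subunit, had 1084, 1120 and 1282 against 1102, 1228 and 1189 normalized counts (0.014, interval -0.11 to 0.14). The core proteins Uqcrc1 and Uqcrc2, which lie outside the naming rule, were not called (0.076 and 0.053). Of the 6 counts of Uqcrc2, 5 had a decimal part other than 0. Its span overlaps that of Pdzd9 by 621 bases, and Pdzd9 had from 1.92 to 6.31 counts per sample. In each sample the counts of this pair add to a whole number, so a few reads were probably split between them. Uqcrfs1, the Rieske iron-sulfur protein and so a catalytic subunit too, had 1239, 1295 and 1274 against 1040, 1200 and 1088 normalized counts. It fell by 0.193 on the log2 scale (adjusted p = 0.00517 by edgeR), and the call was lost without DMSO replicate 2 or 3 or SD70 replicate 1 or 3 (adjusted p from 0.0135 to 0.041). Uqcr11 fell by 0.364 (adjusted p = 0.0022 by edgeR) although SD70 sample 2, at 335 normalized counts, was above DMSO sample 1, at 326. Its call was lost without DMSO replicate 3, SD70 replicate 1 or SD70 replicate 3 (edgeR, adjusted p = 0.0136, 0.0249 and 0.0158), and with the length offset (-0.185, adjusted p = 0.0529). Uqcr10, named after its values were seen, fell by 0.191 (adjusted p = 0.0092 by edgeR), and its call was lost without any sample other than DMSO replicate 1 (adjusted p from 0.0166 to 0.0648 by edgeR), by DESeq2 (0.0201) and by both limma fits (0.0126 and 0.0119). With the length offset described further on it was at -0.011.

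**Figure D2:**
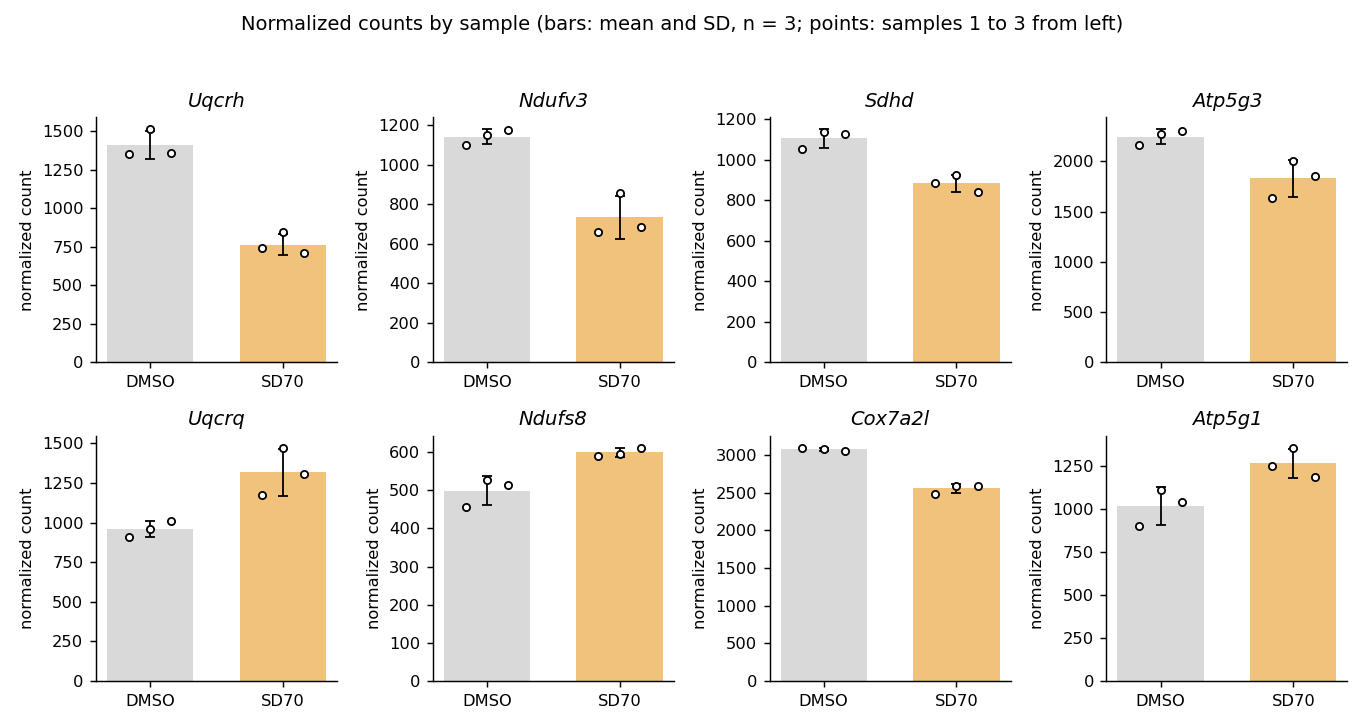
Normalized counts (y axis, from 0) of 8 members in the 3 DMSO and 3 SD70 samples. Bars are means, whiskers SD, and points samples 1 to 3 from left to right. Uqcrh, Ndufv3, Sdhd, Cox7a2l and Atp5g3 were lower in all SD70 samples, and Uqcrq, Ndufs8 and Atp5g1 were higher in all SD70 samples.

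Complex IV, cytochrome c oxidase, reduces oxygen. Its catalytic subunits are mitochondrial and not in the list, so the members are the nuclear subunits that surround them. Of 14 tested, 0 were higher by edgeR or DESeq2, 6 were lower and 8 were not called, and the median log2 fold change was -0.216, the lowest of the 5 complexes before correction for transcript length. The 42.9% lower stood beside 24.2% of all genes, and 25.8% of all genes were higher. With the length offset described further on it was -0.088, and complex II, at -0.122, was lower. At an unadjusted p under 0.05, and by limma on FPKM, 1 member was higher, the rare Cox6a2. Relative to the DMSO mean, the median member of complex IV stood at -0.239, -0.123 and -0.266 with SD70 and at -0.083, 0.048 and 0.039 with DMSO, so these medians did not overlap. The 4 complex IV members most abundant per length were not called. Cox8a (515 ± 13.6 FPKM with DMSO) changed by -0.101 (interval -0.21 to 0.01), Cox6c stood at 459 FPKM in both groups, and Cox4i1 (375 ± 11.9 FPKM) changed by -0.083 (-0.19 to 0.02). Cox6c and Cox7c were named after their values were seen. Cox7c (380 ± 38.2 FPKM) had 1494, 1861 and 1899 against 1486, 1601 and 1278 normalized counts, with overlap (-0.266, interval -0.53 to 0.00), and it was called lower without DMSO replicate 1 (-0.369, edgeR, adjusted p = 6.05e-05) and with all genes of at least 1 count in the fit (-0.268, adjusted p = 2.27e-05).

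The called falls of complex IV were narrow in size, from -0.324 to -0.204. Cox7a2, the widely expressed form of subunit VIIa, had 1137, 1277 and 1109 normalized counts with DMSO and 928, 994 and 891 with SD70 (-0.324 ± 0.0624, SE, adjusted p = 3.52e-05 by edgeR). Its gene span overlaps that of Tmem30a by 2482 bases, and Tmem30a was itself lower (-0.178, adjusted p = 0.0019 by edgeR). Cox7a2l, a relative of Cox7a2 that joins complexes III and IV in supercomplexes, had 3092, 3082 and 3049 against 2479, 2592 and 2591 (-0.267, adjusted p = 1.75e-05 by edgeR). Here the spread within each group was small and the groups were well apart. Cox7b had 2335, 2666 and 2620 against 2105, 2227 and 1900 (-0.289, adjusted p = 9.87e-05 by edgeR), also without overlap. Cox6b1, Cox6a1 and Cox5a fell by 0.244, 0.228 and 0.204 on the log2 scale (adjusted p = 0.00109, 0.00117 and 0.00465 by edgeR). The call of Cox6b1 was lost without SD70 replicate 3 (edgeR, adjusted p = 0.0141), that of Cox6a1 without SD70 replicate 1 (adjusted p = 0.0188), and that of Cox5a without DMSO replicate 3, SD70 replicate 1 or SD70 replicate 3 (edgeR, adjusted p = 0.0582, 0.0228 and 0.0206) and by DESeq2 (0.0102). With the length offset these 3 were at -0.093, -0.088 and -0.114.

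Several complex IV subunits have a tissue-restricted form, and these were rare in the cells. The heart and muscle form Cox6a2 had 11, 14 and 7 counts in the DMSO group and 19, 16 and 19 in the SD70 group, which did not overlap, and its log2 fold change of 0.843 missed the threshold (interval 0.17 to 1.52, adjusted p = 0.0284 by edgeR). The muscle form Cox7a1 changed by -0.193 (interval -0.89 to 0.50) and Cox7b2 by -0.581 (-1.20 to 0.04), both over fewer than 35 normalized counts in every sample. Cox4i2, the oxygen-regulated form of Cox4i1, was left out by the filter with at most 2 counts in any sample. Striated muscle markers summed to at most 5 counts per sample, and the intervals of these rare forms are wide. Forms that were common, Cox6a1, Cox7a2 and Cox7b, took nearly all the counts of their pairs in both groups. For the Cox6a pair, the ratio of Cox6a2 to Cox6a1 counts was 0.00608, 0.0072 and 0.00355 with DMSO and 0.0134, 0.00924 and 0.0133 with SD70.

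Complex V couples the proton gradient to ATP synthesis through a catalytic F1 head, a peripheral stalk and a membrane part with a ring of c subunits. Of its 17 members, 1 was higher, 4 were lower and 12 were not called. The 23.5% lower was near the 24.2% of all genes, and the 5.88% higher was below the 25.8%. The catalytic genes were flat. Atp5b, the beta subunit and the most abundant member per length at 1108 ± 34.2 FPKM with DMSO and 1074 ± 38.3 with SD70 (SD, n = 3), had 29939, 30786 and 32240 against 29523, 31678 and 30753 normalized counts (-0.016, interval -0.11 to 0.08). Atp5a1, the alpha subunit, changed by 0.053 (interval -0.05 to 0.15). Of the 5 F1 genes, Atp5d, the delta subunit, was lower (-0.194, adjusted p = 0.00367 by edgeR). It was named after its values were seen, and its call was lost without DMSO replicate 2 or 3 or SD70 replicate 1 or 3 (adjusted p from 0.0115 to 0.0298). Of the 4 genes of the peripheral stalk, 0 were called by edgeR with the main settings, DESeq2 or limma, and 1 had an unadjusted p under 0.05 (Atp5j, -0.162). Atp5j, named after its values were seen, was called lower by edgeR with upper-quartile scaling (-0.204, adjusted p = 0.00373) and without SD70 replicate 2 (-0.21, adjusted p = 0.00642).

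Atp5g1, Atp5g2 and Atp5g3 encode the same mature c subunit with different targeting sequences, and they moved differently. Atp5g1 (NCBI Gene 11951, chr11:96072793-96075694) had 898, 1109 and 1041 normalized counts with DMSO and 1248, 1355 and 1186 with SD70. The groups did not overlap, and the difference was 0.314 ± 0.0672 on the log2 scale (SE, adjusted p = 0.000201 by edgeR). Atp5g3 (NCBI Gene 228033, chr2:73908447-73912464) had 2159, 2268 and 2306 against 1635, 2003 and 1852 normalized counts, with every SD70 sample below, and fell by 0.295 on the log2 scale (standard error of 0.0595, adjusted p = 7.82e-05 by edgeR). Atp5g2 was not called, at 2398, 2693 and 2651 against 2236, 2483 and 2302 normalized counts (-0.141, interval -0.25 to -0.03, adjusted p = 0.0258 by edgeR). It was called without DMSO replicate 1 or without SD70 replicate 2 (edgeR, adjusted p = 0.0055 and 0.00931), and with all samples under upper-quartile scaling (-0.184, adjusted p = 0.00478). Of the summed FPKM of the 3 genes, Atp5g1 made up 13.6%, 15.2% and 14.5% with DMSO and 20.4%, 19.5% and 18.5% with SD70. The share of Atp5g3 was 38%, 35.9% and 37% with DMSO and 31%, 33.3% and 33.5% with SD70, and that of Atp5g2 stayed between 47.3% and 48.9% in all 6 samples. The sum itself was 646, 709.5 and 679 FPKM with DMSO and 585.1, 658.6 and 620.2 with SD70, so the groups overlapped in the sum and were apart in the make-up. Between samples of the same number, the SD70 sum was the lower each time.

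Of the 4 small membrane subunits of complex V, 2 were lower, or 50% against 24.2% of all genes, a difference that was not tested over so few genes. Atp5mpl had 531, 577 and 643 against 415, 498 and 372 normalized counts (-0.443 ± 0.0907, SE, adjusted p = 0.0002 by edgeR), without overlap. Atp5l, subunit g, had 1452, 1703 and 1649 against 1362, 1397 and 1117 (-0.308, adjusted p = 0.00232 by edgeR). Its highest SD70 sample lay below the lowest DMSO sample, and without SD70 replicate 1 the adjusted p was 0.0119. With the length offset described further on, Atp5mpl and Atp5l were at -0.224 and -0.161 and stayed called. Atp5k, subunit e, was not called (-0.36, interval -0.76 to 0.04), with 151, 201 and 241 against 151, 187 and 122 normalized counts, and it was called without DMSO replicate 1 (-0.521, edgeR, adjusted p = 0.00206) and with all genes of at least 1 count in the fit (-0.363, adjusted p = 0.00382).

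Summed over the members of a complex, FPKM gave levels per length. For complex II they came to 356.8, 361.7 and 365.4 in the DMSO group against 320.7, 340.2 and 317.6 in the SD70 group. For complex III they were 1111, 1214.7 and 1167.1 against 1037.9, 1061.8 and 1003.6. For complex IV they were 3095.8, 3358.6 and 3196.8 against 2858, 3021.4 and 2747.6. In these 3 complexes every SD70 sum was below every DMSO sum. For complex III this rested on Uqcrh, without which the sums were 885.9, 967.3 and 954.7 against 917.8, 927.6 and 886.1 and overlapped. The sums overlapped for complex I, with 2906.8 to 3208 against 2873 to 3141.7, and for complex V, with 4061.6 to 4379.1 against 3851.1 to 4137.1. Over all members the sum was 12090 ± 506 with DMSO and 11190 ± 467 with SD70 (SD, n = 3), and the groups overlapped. Between samples of the same number, the SD70 sum was the lower each time over all members and for complex V, but not for complex I.

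**Figure D3:**
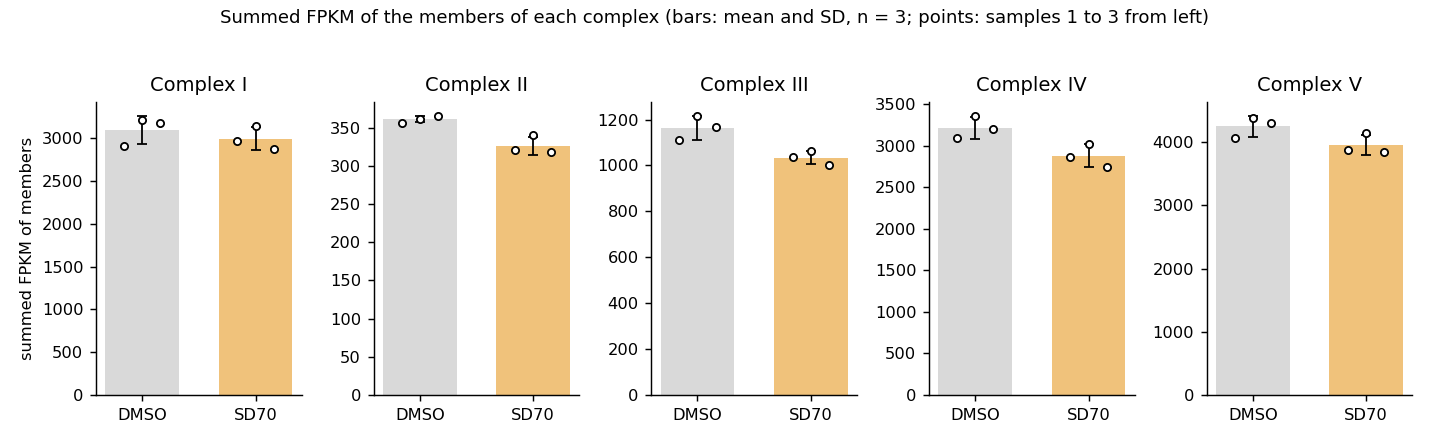
FPKM summed over the members of each complex (y axis, from 0) in the 3 DMSO and 3 SD70 samples. Bars are means, whiskers SD and points the samples 1 to 3 from left to right. The groups are apart for complexes II, III (through Uqcrh alone) and IV and overlap for complexes I and V.

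OXPHOS transcripts are short, and fold change varied with length in this experiment. The length implied by a gene's counts and FPKM had a median of 496 bases over the tested members and 2706 over all genes. Among genes under 500 bases that are no member, the median log2 fold change was -0.136 (199 genes), 24.6% were lower and 7.04% were higher. Among the 42 members under 500 bases, the median was -0.113, with 9 lower and 1 higher. Over the 82 members, Pearson's r between length and log2 fold change was 0.25 and Spearman's rho 0.28, across genes that share the same libraries and are not independent. When the trend of counts on length was taken off in each sample, the median over the members went to -0.005. Those of complexes I to V went to 0.03, -0.122, 0.013, -0.088 and -0.037. In that fit 26.5% of all genes were higher and 24.5% lower. Of the 19 lower calls of members 13 were kept, and 9 members were higher. The 5 added by this step were Ndufa12 (0.284), Ndufc2 (0.258), Ndufa4 (0.234), Ndufb4 (0.213) and Uqcrb (0.181), with adjusted p from 0.000102 to 0.00819 by edgeR. Of these, Ndufa4 is in the naming rule and the others are named by this step, and the counts of Ndufb4 were not whole, as reads may be shared with Ndufb4b and Ndufb4c. The lower calls that went were those of Ndufa6, Uqcr10, Uqcr11, Cox5a, Cox6a1 and Cox6b1, with Ndufa6 at -0.253 and Uqcr11 at -0.185. Among calls that were kept, Atp5mpl went from -0.443 to -0.224, Atp5l from -0.308 to -0.161 and Uqcrh from -0.88 to -0.747.

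**Figure D4:**
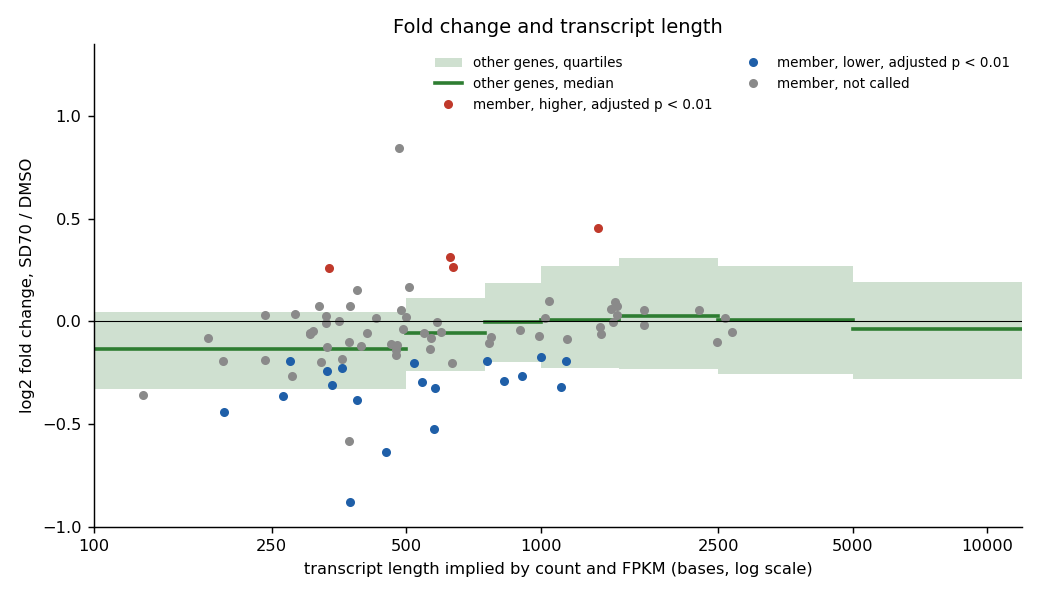
Log2 fold change of SD70 against DMSO (y axis) against the transcript length implied by count and FPKM (x axis, log scale). Points are the 82 tested members, and the green lines and bands are the median and quartiles of all other tested genes in 7 length classes. The other genes under 500 bases have a median of -0.136, close to the -0.113 of the members of that length.

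The genes that build and supply these complexes were described from fixed lists, chosen with earlier results of these data known. Of 52 tested assembly factors of complexes I to V, 13 were higher and 1 lower, and their median was 0.06. Their share higher, 25%, was near the 25.8% of all genes, and their share lower, 1.92%, was below the 24.2% of all genes. With the replicate block, 14 were higher and 2 lower, as Cox16 (0.305, adjusted p = 0.00552) and Uqcc2 (-0.197, adjusted p = 0.00909) were then called by edgeR. Sco2, which brings copper to complex IV, had 35.1, 54.3 and 40.1 normalized counts with DMSO and 92.9, 104 and 93.1 with SD70 (1.165, adjusted p = 3.81e-07 by edgeR). The complex IV factors Coa7 (1.112) and Sco1 (0.741), the complex I factor Ndufaf4 (0.824), the complex II factor Sdhaf1 (0.923) and the complex III factor Uqcc1 (0.495) were higher too, while Cmc2 was lower (-0.261). Ndufaf4 had 956, 988 and 994 against 1707, 1667 and 1831 normalized counts. The factors thus included members that rose by more than any called subunit gene, whose largest rise was the 0.456 of Uqcrq.

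Genes that keep and transcribe mitochondrial DNA were higher or not called. Of 15 tested, 7 were higher and 0 lower by edgeR and DESeq2, while limma and an unadjusted p under 0.05 each gave 1 lower. The share higher was 46.7%, beside 25.8% of all genes, and 24.2% of all genes were lower. Mterf3, a mitochondrial transcription termination family protein, had 342, 354 and 323 normalized counts with DMSO and 832, 832 and 902 with SD70 (1.331, adjusted p = 1.26e-17 by edgeR). Tfb2m (0.881) and Tfam (0.796), which start transcription on mitochondrial DNA, and Tefm (0.63), an elongation factor, rose as well. Of 10 tested regulators of mitochondrial biogenesis, 4 were higher and 1 lower (40% and 10%, against 25.8% and 24.2% of all genes). Gabpb1, a subunit of the factor GABP, had 894, 924 and 854 against 1321, 1221 and 1373 normalized counts (0.551, adjusted p = 8.29e-10 by edgeR), Pprc1 and Gabpb2 were higher (0.421 and 0.277), and Ppard was lower (-0.307).

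Of 15 genes for cytochrome c and coenzyme Q synthesis, 5 were higher and 0 lower by edgeR and DESeq2, with 1 lower by limma and at an unadjusted p under 0.05. By edgeR 33.3% were higher and 0% lower, against 25.8% and 24.2% of all genes. Pdss1, which makes the coenzyme Q side chain, was at 0.689. Of 24 genes of protein import, 7 were higher and 1 lower, so the 29.2% higher was near the background of 25.8% and the 4.17% lower was below that of 24.2%. With the replicate block 9 were higher. The small chaperones Timm10 (1.02), Timm8a1 (0.934) and Timm9 (0.823) and Hspa9 (0.811), the mitochondrial Hsp70, were among them. The tricarboxylic acid cycle list had 1 of 14 higher, Dld (0.738), and 1 lower, Idh2 (-0.209), each 7.14% and below the background. Implied lengths differ between these lists, with a median of 1072 bases for the assembly factors, 1411 for the mitochondrial DNA list and 1020 for protein import. With the length trend taken off, the medians were 0.063, 0.19 and 0.108.

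**Figure D5:**
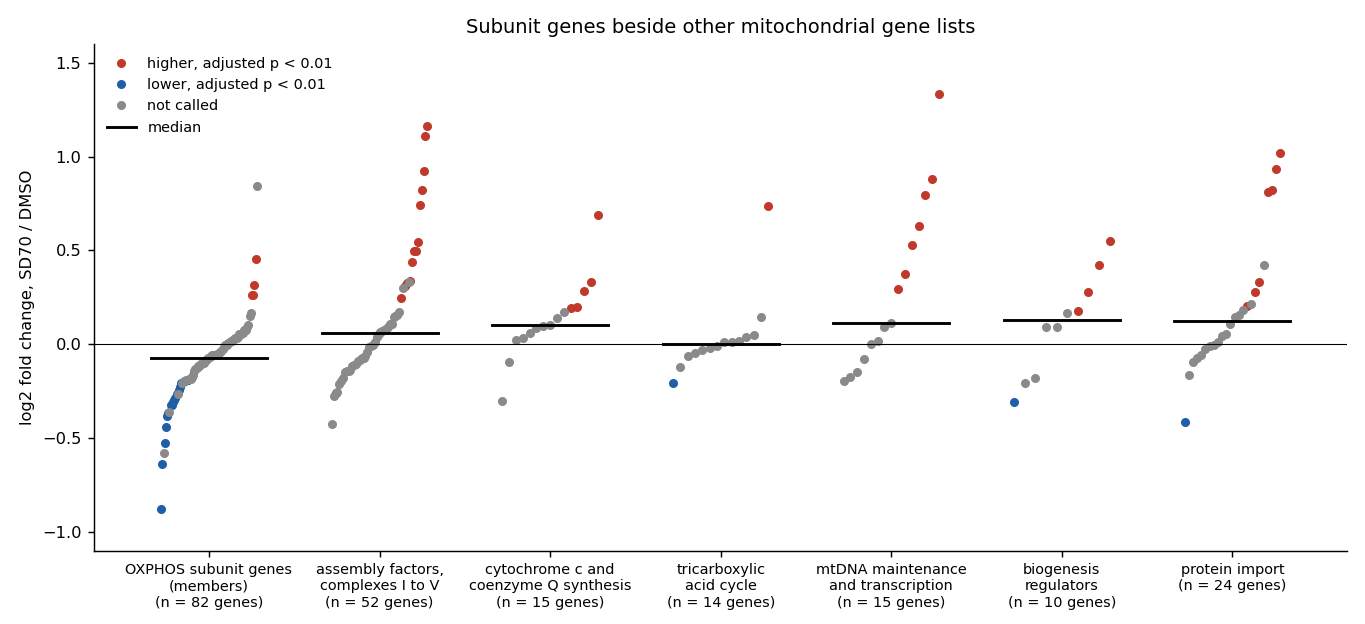
Log2 fold change of SD70 against DMSO (y axis) for the tested OXPHOS members and 6 other mitochondrial lists (x axis), each gene a point in order of its value, with black lines at the medians. The members have 4 higher and 19 lower genes, the assembly factors 13 higher and 1 lower, and the mitochondrial DNA list 7 higher and 0 lower.

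The start-site windows of the members were searched for 4 motifs of factors known for OXPHOS genes, on both strands. RefSeq windows on GRCm38.p6, from 250 bases before the start site to 50 after, matched 68 of the 86 members (73 windows). Letters of the NRF1 motif, CGCANGCG, were in 38.4% of the members' windows, 17.1% of those of all genes tested and 8.21% of all windows in the table. The YY1 motif AAGATGGCG was in 9.59%, 3.12% and 1.4%, the ERR motif TCAAGGTCA in 2.74%, 0.303% and 0.423%, and the GABP motif CCGGAAGT in 6.85%, 8.48% and 3.89%. None of these motifs contains another. The NRF1 letters were in 8 of 18 windows of lower members (44.4%), 1 of 3 windows of higher members and 19 of 51 windows of members not called (37.3%). For the YY1 letters these were 0 of 18, 0 of 3 and 7 of 51 (13.7%), and no difference between the classes was tested. A match is a description of the letters in a window and not of binding. The short windows around all matches of 4 lower members are shown because these are the lower members with ERR or GABP letters, with the matched letters in capitals on the gene's strand.
Uqcrh, GABP, chr4:116075065-116075090: gtatgccgcACTTCCGGccaggtcgc
Uqcr11, GABP, chr10:80406871-80406896: ctctcctccCCGGAAGTagatgtcaa
Uqcr11, NRF1, chr10:80406810-80406835: tcgccttcaCGCATGCGctatacgtc
Sdhd, NRF1, chr9:50603911-50603936: gctggggtgCGCACGCGcggtggcag
Sdhd, ERR, chr9:50603800-50603822: gttgtagagTGACCTTGAgccct
Atp5g3, NRF1, chr2:73911297-73911322: gccgcaccgCGCTTGCGcgcccagcc
Atp5g3, ERR, chr2:73911361-73911387: gttacaaagTGACCTTGAgcgtcttcc
All 7 stretches lie on the minus strand. Of the 5 members with GABP letters, Uqcrh was at -0.88 and Uqcr11 at -0.364, while 3 were not called: Cox8a, with the letters at 2 places (-0.101), Ndufs3 (-0.106) and Atp5h (-0.056), the latter pair named for their letters and not by the naming rule. Sdhd and Atp5g3, the members with ERR letters, were at -0.322 and -0.295.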

How the data were processed

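Lewis cells were profiled by RNA-seq in 6 samples, 3 with DMSO and 3 with SD70 for 24 hours, grouped by the sample labels. The authors aligned clean BGISEQ-500 reads to GRCm38.p6 with HISAT and deposited unscaled expected counts per gene. The submitters' processing notes name StringTie 1.3.3b and the build mm8, without their roles. The authors also deposited FPKM, scaled to transcript length and depth, and the unit of this column was recognized from the lengths it implies. The extraction protocol in the labels speaks of tissue, although the samples are labeled as cells. The paper says in general that experiments were repeated independently, but neither it nor the labels say whether these RNA samples came from separate cultures. If they did not, p-values measure technical spread. Strand was not stated, and reads of overlapping genes cannot be told apart.

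Expected counts were rounded, filtered with filterByExpr (11552 genes), scaled by TMM and tested with glmQLFit (robust) and glmQLFTest of edgeR 4.0.16 in R 4.3.3, two-sided, with Benjamini-Hochberg adjustment over all genes tested. Standard errors came from the quasi-likelihood F statistic and intervals are 95% intervals from it. Precision is limited by 3 samples per group. Within groups, replicates differed by more than counting error alone gives (2.12 to 4.97 in chi-square per gene). On simulated SD70 against DMSO counts over 11462 genes, edgeR recovered 93 of 100 genes changed by 0.5 and 100 of 100 changed by 2 on the log2 scale, and called 3 unchanged genes. The simulation gave all genes 1 common biological coefficient of variation, 0.046. It changed few genes, all well counted, as many up as down. Real genes differ in spread, 25.8% and 24.2% of them were called, and most called members moved by less than 0.5. The simulated rates therefore need not hold for the real data.

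Same-numbered samples deviated together from their group means (r = 0.176, 0.254 and 0.157 over 9624 genes). Samples of different number gave r from -0.186 to 0.0112, and these values are tied, as deviations within a group sum to 0. By this check on the data the replicate numbers may pair the samples, and the labels give no reason for a pairing. The main fit was unpaired, and the pairing entered as the replicate block. The text names the 4 members of each complex with the largest absolute change, the catalytic core subunits, isoform pairs and members left out by the filter, and at most 4 called genes of each other list. Members named outside this rule are marked where they appear. One member is not reported here by name and stays in the counts. The members and lists were chosen with earlier results of these data known. Alternatives were DESeq2 1.42.0, limma 3.58.1 on log2(FPKM + 1) and log2(FPKM + 0.1), other scalings and filters, a replicate block, a transcript length offset, an adjusted p under 0.05, structural subunits only, and each sample left out.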

Additional observations from a re-analysis of the deposited data

How the results depend on the processing

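Leaving out each sample in turn gave 2 to 5 higher and 10 to 24 lower members and a median log2 fold change from -0.121 to -0.042. In these fits 22.1% to 24% of all genes were higher and 21.2% to 22% lower. At an adjusted p under 0.05, 7 members were higher and 23 lower. The share of all genes at that threshold is not given here, so these counts cannot be set against it. With the transcript length offset, 9 of 82 were higher and 13 lower, since this step adds to the fold changes of short genes. Both were below the shares of all genes in that fit, 26.5% and 24.5%. The other alternatives gave 3 to 5 higher and 16 to 22 lower members, a median from -0.116 to -0.069, and 0 with an adjusted p under 0.01 and a change of 1 on the log2 scale. Among all genes they gave 18.9% to 26.3% higher and 18.1% to 27.8% lower. With the replicate block, 4 members were higher and 19 lower, they were the same genes, and no call of a named member changed. In the other lists the block added calls for Cox16, Uqcc2, Timm50 and Tomm5, and it changed no other call there. Upper-quartile scaling moved the median of all genes to -0.047 from -0.004.

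Of 36 named members that were tested, 16 kept direction and call in the 15 refits. Reversals were confined to members within 0.2 of 0 on the log2 scale. With the length offset, Cox7a1 went to 0.03, Cox8a to 0.04, Ndufs1 to -0.01 and Ndufs7 to 0.07. With upper-quartile scaling, Cyc1 and Ndufs1 went to -0.03 each. By limma on log2(FPKM + 1) and on log2(FPKM + 0.1), Cyc1 went to -0.01 and Ndufs1 to -0.02. With each sample left out, the log2 fold change ran from -0.04 to 0.01 for Atp5b, from -0.44 to 0.03 for Cox7a1, from -0.03 to 0.08 for Cyc1, from -0.01 to 0.03 for Ndufs1 and from -0.02 to 0.02 for Ndufs7. The cause of these changes was not tested. Few counts limit Cox6a2, Cox7a1 and Cox7b2, and with 3 samples per group a change as small as those of Sdhc or Uqcr10 was not called without most single samples.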
